A study of Mus musculus with 20 samples.

Results

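The 9 genes described here, Shh, Ptch1, Smo, Boc, Hhip, Gli1, Gli2, Gli3 and Sufu, carry the Hedgehog signal from its ligand to its transcription factors. They were taken by gene symbol, and all 9 were found among the 27998 genes of the single-cell RNA tables and among the 24062 rows of the bulk RNA tables. They were chosen by their place in the pathway and by their measured levels across cell classes, ages and knockdown libraries. Their own values are therefore given as a description, without p-values, and where a rule counts them the count is no test of them.

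C57BL/6 mice that express EGFP from a Nestin transgene (Nestin-EGFP) were used at the ages P5, 12w and 24w. EGFP-positive viable cells of the dentate gyrus (DG) were sorted by FACS, and 1 scRNA-seq and 1 scATAC-seq library were made at each age. The sort keeps any cell with EGFP, so it holds glia, ependymal cells and cells of blood vessels beside neural stem cells (NSCs) and their progeny. No library carried a further allele or treatment. For the bulk RNA-seq, mouse NSCs were infected with a lentivirus carrying, under the U6 promoter, a short hairpin RNA against Setd8 or a scrambled one. Setd8 is the enzyme that adds the first methyl group to lysine 20 of histone H4. The infected cells were selected with puromycin and collected after 3 days by the labels, whereas the authors' table of these experiments gives 2 days. These cells are labelled hippocampus, whereas the methods describe a line from embryonic cortex that was passaged many times in bFGF and EGF, and the control and the knockdown libraries share this history.

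Hedgehog ligands such as Shh bind the receptor Ptch1 together with coreceptors such as Boc. Without ligand, Ptch1 at the primary cilium holds the membrane protein Smo inactive. Sufu then retains the Gli proteins, while Gli3 and in part Gli2 are cut into repressors. With ligand, Smo is released and full-length Gli2 and Gli3 activate target genes. Gli1, Ptch1 and Hhip are themselves targets of the pathway, which is why the RNA of Gli1 and Ptch1 is widely used as a readout of it. In the adult DG, Shh is known to act on NSCs, and cells with Gli1 include NSCs that last for a long time.

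Gli proteins bind a core of 9 bases, GACCACCCA, which was searched on both strands of the scATAC-seq peaks in and up to 20 kb upstream of the 9 genes. Peaks of Ptch1, Smo, Boc and Gli2 held a match, and those of Shh, Hhip, Gli1, Gli3 and Sufu held none. Of the 14 peaks assigned to Ptch1 at each age, 3 held the motif, with 4 matches. Smo had 1 such peak of 9 at P5, of 6 at 12w and of 5 at 24w. Boc had 1 of 18, of 17 and of 16. Gli2 had 1 of 40 at P5, 1 of 41 at 12w and 0 of 30 at 24w. The motif was found in 0.90%, 0.999% and 0.982% of all peaks of the P5, 12w and 24w libraries. The median peak held 645, 710 and 694 bases, against 2342, 2471 and 2219 for the Ptch1 start peak, so shares per peak are not on a like length. In windows of 300 bases around the peak centres the share was 0.257%, 0.243% and 0.234%. Of 32851 RefSeq promoters of GRCm38, 83 held it (0.253%), and none of the 6 promoters found there for the 9 genes did. A match is a description of the letters and not evidence of binding. The 7 matches are shown because the accessibility of the peaks around them, except that of Gli2 site 1, is described below by cell class. They are written in mm10, 5′ to 3′ on the strand of the match, with the motif in capitals.
Ptch1 site 1 (chr13:63566425-63566453, plus strand, intron of Ptch1): aaagtagagaGACCACCCAggtaggcaac
Ptch1 site 2 (chr13:63569275-63569303, minus strand, intron of Ptch1): cctcagccctGACCACCCAagtcgagcag
Ptch1 site 3 (chr13:63573455-63573483, minus strand, UTR of Ptch1): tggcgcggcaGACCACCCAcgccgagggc
Ptch1 site 4 (chr13:63585536-63585564, minus strand, intergenic): taaatacacaGACCACCCAtcccacacac
Smo site 1 (chr6:29719063-29719091, minus strand, intergenic): acatggtgggGACCACCCAtgtggtagag
Boc site 1 (chr16:44552146-44552174, plus strand, intron of Boc): tattgtccaaGACCACCCActggaaatag
Gli2 site 1 (chr1:118969533-118969561, plus strand, intron of Gli2): ggcctgcccaGACCACCCAgtctccagca

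Ptch1 is transcribed from the minus strand, so sites 1, 2 and 3 lie 7163, 4313 and 133 bases downstream of its start. Site 4 lies 11948 bases upstream of the start, and among the peaks with a match its peak had the largest ratio of NSC-like to pericyte-like nuclei at 12w and 24w. The 209 bases around site 4, chr13:63585446-63585654 on the minus strand of mm10, with the motif in capitals and a GC content of 50.2%, read as follows.
Ptch1 upstream element: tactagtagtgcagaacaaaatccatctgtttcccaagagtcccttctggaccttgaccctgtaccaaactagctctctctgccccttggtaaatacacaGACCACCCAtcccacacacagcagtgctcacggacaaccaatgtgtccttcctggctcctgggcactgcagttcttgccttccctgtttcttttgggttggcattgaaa

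Filters and removal of doublets left 12752, 5271 and 2794 cells for P5, 12w and 24w, with a median of 4261, 2271 and 2178 unique molecular identifiers (UMIs). Clusters were called X-like only from marker genes, with the 9 genes held out of the clustering, and 20.5% of cells stayed unnamed. The 1680 NSC-like cells (1235, 348 and 97 at the 3 ages), 4233 astrocyte-like (AS-like) cells and 1549 neural progenitor-like (NPC-like) cells are the classes in which the ages are compared first. Immature neurons formed 2 classes (IMN1-like and IMN2-like). Oligodendrocyte precursors (OPC-like) were mostly from P5, with 1859 of 1900 cells. Pericyte-like (PC-like) cells were mostly adult, with 2102 from 12w and 1566 from 24w among 3741. Levels are CPM, the UMIs of a gene per 1000000 UMIs of a class at an age, with exact Poisson intervals at 95% that cover counting error only. With 1 library per age, differences between ages have no replicate check. The ages also differ in sex: 20.1%, 92.4% and 0.0358% of cells held UMIs of Xist without those of Y-linked genes at P5, 12w and 24w, and 31.8%, 0% and 29.5% held the reverse. P5 thus holds both sexes, and 12w and 24w differ in sex, so age and sex cannot be told apart between 12w and 24w, nor against all P5 cells. The libraries shared 98, 63 and 26 barcodes between P5 and 12w, P5 and 24w, and 12w and 24w.

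The ligand Shh was nearly absent from the sort. It had 5 UMIs in 4 cells, all of them OPC-like, with 4 UMIs at P5 and 1 at 12w. In OPC-like cells at P5 its level was 0.685 CPM (0.187–1.75). No UMI was seen in any other named class, and in NSC-like cells a limit of 3 UMIs is 0.578, 2.35 and 8.61 CPM at the 3 ages, and the exact Poisson upper limit is 0.710, 2.89 and 10.6 CPM. The gene lies at chr5:28456815-28467256 on the minus strand and overlaps 9530036O11Rik and Gm26894. In the scATAC-seq data no peak lay over its start at any age. Accessibility over the gene and 2 kb upstream of it, as CPM (here counts per 1000000 counts in the peaks of a class), was highest in OPC-like nuclei, with 47.2 at P5 and 35.3 at 12w. IMN2-like nuclei followed with 38.6, 29.9 and 23.9 at P5, 12w and 24w. In NSC-like nuclei it was 11.9, 8.31 and 2.90, so the ratio of NSC-like to IMN2-like was 0.308, 0.278 and 0.121. In PC-like nuclei it was 5.62, 2.29 and 1.18. The peaks were called at each age separately, and those of the Shh locus covered 6988, 5213 and 2353 bases, so its values are compared only within an age.

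**Figure D1:**
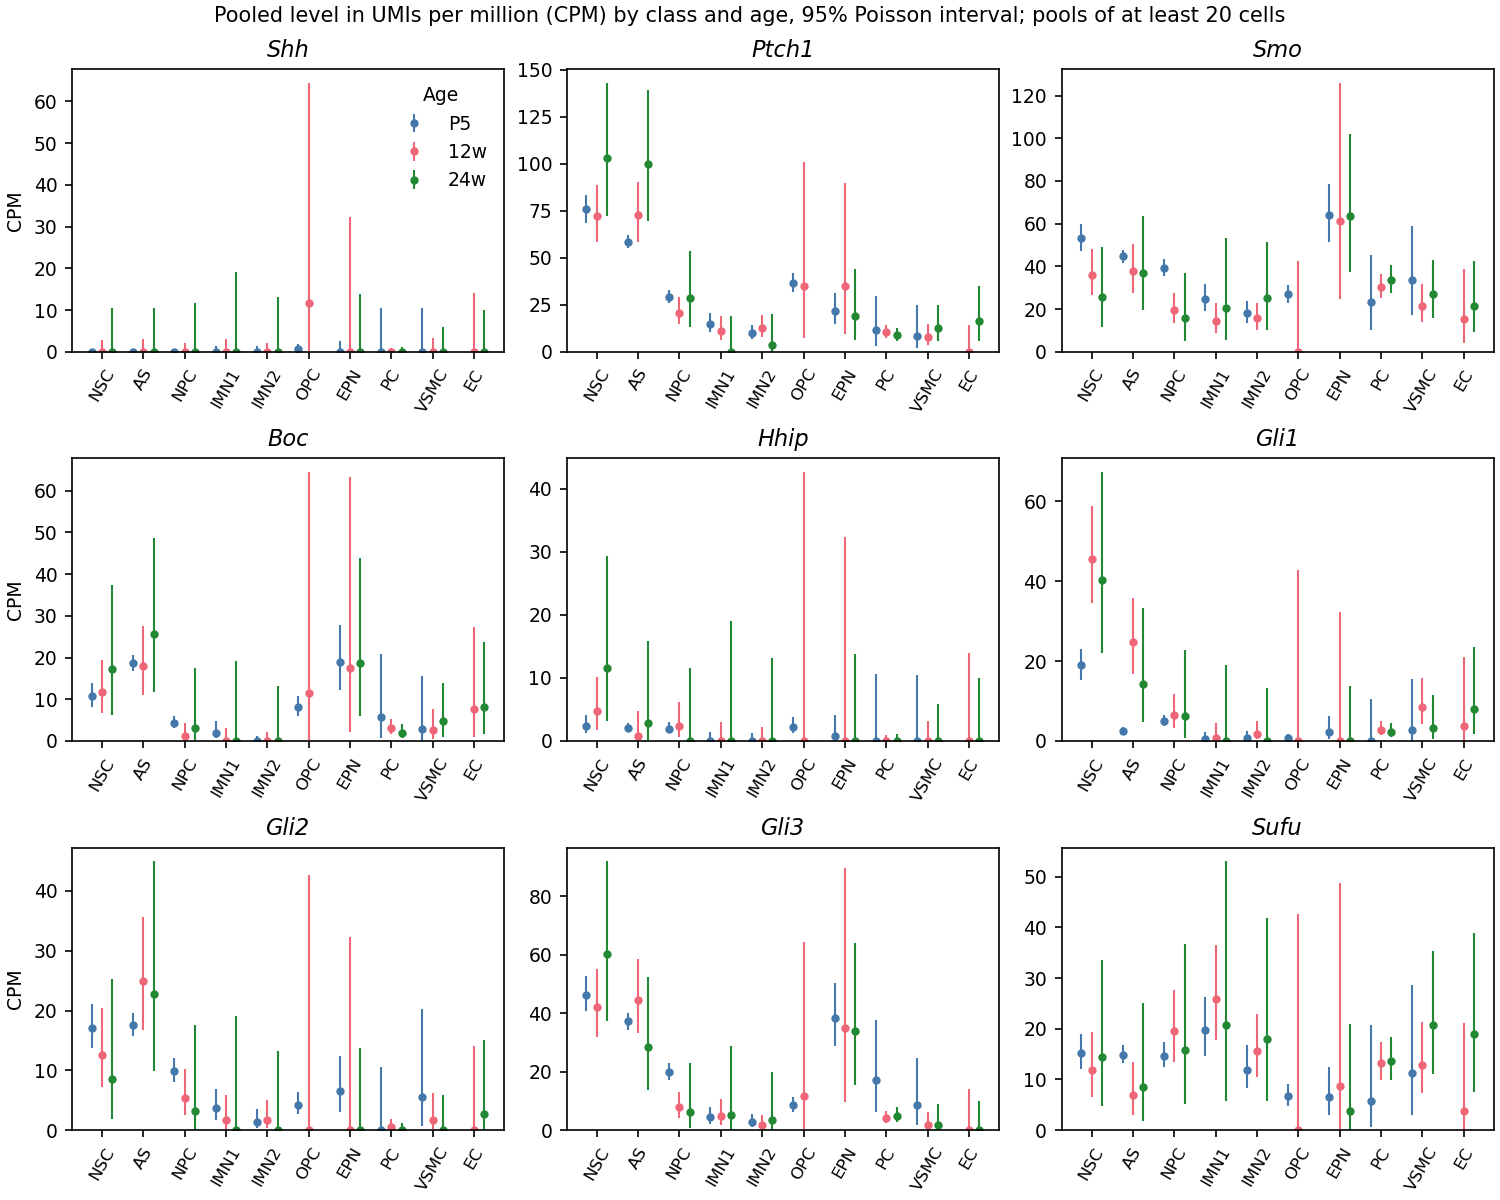
Level of each of the 9 genes in CPM (y axis) by cell class (x axis: NSC, AS, NPC, IMN1, IMN2, OPC, EPN for ependymal, PC, VSMC for vascular smooth muscle and EC for endothelial, all X-like) at P5, 12w and 24w; points are pooled UMIs of 1 library and bars are exact 95% Poisson intervals. Gli1 at 12w stands at 45.5 CPM in NSC-like, 24.9 CPM in AS-like and 6.55 CPM in NPC-like cells, and Shh is at 0 outside the OPC-like class.

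Ptch1, the receptor that holds Smo inactive, had 3009 UMIs, of which 56.7% came from NSC-like and AS-like cells, which hold 32.5% of all UMIs. Its NSC-like level was 75.7 (68.4–83.5), 72.1 (58.2–88.5) and 103 CPM (72.4–143) for P5, 12w and 24w. The AS-like level was 58.5, 72.9 and 99.8 CPM. NSC-like cells stood above AS-like cells at P5, with a ratio of 1.29 (1.15–1.45), and within counting error of them at 12w, with 0.990 (0.729–1.35). Along the neuronal series the level was lower, with 29.3, 20.8 and 28.4 CPM in NPC-like cells and 9.81, 12.8 and 3.58 CPM in IMN2-like cells. The NSC-like level was 2.58 times (2.21–3.02) that of NPC-like cells and 7.71 times (5.25–11.8) that of IMN2-like cells at P5. OPC-like cells at P5 had 36.3 CPM. PC-like cells had 11.5, 10.4 and 8.69 CPM, and at 12w free RNA could account for up to 11.9 of their 41 Ptch1 UMIs, against up to 4.60 of 92 in NSC-like cells.

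Smo, the membrane protein that passes the signal on, was spread more widely. It had 2880 UMIs, with 41.7% in NSC-like and AS-like cells. Ependymal-like cells had 63.9, 61.3 and 63.8 CPM at P5, 12w and 24w, and these cells carry many cilia. NSC-like cells had 53.1, 36.1 and 25.8 CPM, AS-like cells 44.7, 37.7 and 37.1 CPM, and PC-like cells 23.1, 30.2 and 33.5 CPM. In NPC-like cells the level was 39.2, 19.6 and 15.8 CPM. NSC-like cells stood above IMN2-like cells 2.92-fold (2.16–4.00) at P5 and 2.30-fold (1.40–3.84) at 12w. At 24w the ratio was 1.03 (0.342–3.26), from 9 and 7 UMIs, an interval that includes 1 and both earlier ratios.

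Boc, a coreceptor that helps Ptch1 bind the ligand, had 715 UMIs, with 62.4% in NSC-like and AS-like cells. AS-like cells had 18.6, 18.0 and 25.7 CPM, NSC-like cells 10.8, 11.8 and 17.2 CPM, and ependymal-like cells 18.9, 17.5 and 18.8 CPM. The ratio of NSC-like to AS-like at P5 was 0.579 (0.428–0.770). No Boc UMI was found in IMN2-like cells at any age, and NPC-like cells had 4.35, 1.19 and 3.15 CPM. Hhip, a membrane protein that binds and sequesters Hedgehog ligands, had 133 UMIs in all. Its levels were 2.31, 4.71 and 11.5 CPM for NSC-like cells, from 12, 6 and 4 UMIs, with an interval of 3.13–29.4 at 24w. For AS-like cells they were 2.03, 0.857 and 2.85 CPM, from 37, 1 and 1 UMIs. Its highest levels among the classes with a value at all ages, 7.10, 27.2 and 14.2 CPM, were in oligodendrocyte-like cells and rest on 7, 6 and 2 UMIs. IMN1-like, IMN2-like, PC-like, VSMC-like and EC-like cells had no Hhip UMI.

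Gli1, the activator that is itself switched on by the pathway, was the gene of the 9 that set NSC-like cells furthest from AS-like cells at P5. Of its 415 UMIs, 60.5% came from these 2 classes. The P5, 12w and 24w levels were 18.9 (15.3–23.0), 45.5 (34.5–58.8) and 40.2 CPM (22.0–67.4) for the NSC-like class. For the AS-like class they were 2.58 (1.90–3.43), 24.9 (16.7–35.7) and 14.3 CPM (4.63–33.3). The ratio of NSC-like to AS-like was therefore 7.31 (5.11–10.6) at P5, 1.83 (1.15–2.96) at 12w and 2.82 (0.959–10.00) at 24w, where the interval includes 1. NPC-like cells stood at 4.98, 6.55 and 6.30 CPM, and the NSC-like level was 3.79 times (2.66–5.47) theirs at P5 and 6.95 times (3.61–14.7) at 12w. IMN1-like and IMN2-like cells had at most 1.75 CPM at any age. OPC-like cells at P5 had 0.685 CPM, with a ratio of NSC-like to OPC-like of 27.5 (10.4–103). Free RNA could account for at most 0.987 of the 58 Gli1 UMIs of NSC-like cells and 0.945 of the 29 of AS-like cells at 12w.

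Gli2, the main activator made before the signal arrives, and Gli3, the main repressor, had most of their UMIs in NSC-like and AS-like cells. Gli2 had 712 UMIs, with 65.2% in NSC-like and AS-like cells, and Gli3 had 1637, with 64.4%. Gli2 stood at 17.1, 12.5 and 8.61 CPM in NSC-like cells, against 17.5, 24.9 and 22.8 CPM in AS-like ones. The ratio of NSC-like to AS-like for Gli2 was 0.978 (0.764–1.24) at P5 and 0.505 (0.256–0.960) at 12w. Gli3 stood at 46.4, 42.3 and 60.3 CPM in NSC-like cells, against 37.2, 44.6 and 28.5 CPM in AS-like ones and 38.5, 35.0 and 33.8 CPM in ependymal-like ones. Its ratio of NSC-like to AS-like was 1.25 (1.07–1.45) at P5 and 0.95 (0.637–1.42) at 12w. In NPC-like cells Gli3 had 19.8, 7.74 and 6.30 CPM, and the NSC-like level was 2.34, 5.47 and 9.57 times theirs. In IMN2-like cells it had 2.80, 1.75 and 3.58 CPM. The order from NSC-like to NPC-like to IMN2-like was thus a falling one for Gli3 at P5 and 12w, and at 24w the NPC-like and IMN2-like levels rest on 2 UMIs and 1 UMI. Gli2 was near 0 in PC-like cells (0, 0.508 and 0 CPM).

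Sufu, which retains Gli proteins in the cytoplasm, departed from the other genes. Of its 1105 UMIs, 34.5% came from NSC-like and AS-like cells, close to the 32.5% of all UMIs that these classes hold. NSC-like cells had 15.2, 11.8 and 14.4 CPM, NPC-like cells 14.7, 19.6 and 15.8 CPM, and IMN1-like cells 19.8, 25.9 and 20.7 CPM. IMN2-like cells had 11.9, 15.7 and 17.9 CPM and PC-like cells 5.77, 13.2 and 13.7 CPM. At 12w the ratio of NSC-like to IMN1-like was 0.454 (0.229–0.864), and at P5 that of NSC-like to AS-like was 1.02 (0.785–1.32). Sufu overlaps Actr1a.

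Across ages, Gli1 was the gene of the 9 with the largest ratio of 12w to P5 in both NSC-like and AS-like cells, among those with at least 20 UMIs in the higher of the 2 pools. For NSC-like cells this ratio was 2.41 (1.71–3.37), from 98 UMIs at P5 and 58 at 12w. The 24w ratio to P5 was 2.13 (1.12–3.75), from 14 UMIs. For AS-like cells the ratios were 9.63 (5.85–15.6) at 12w, from 47 and 29 UMIs, and 5.52 (1.71–13.8) at 24w, from 5 UMIs. Within the larger AS-like cluster alone the 12w ratio was 8.16 (4.75–13.8). Against P5 cells of like sex, the 12w ratio was 1.77 (1.12–2.85) for NSC-like and 12.9 (5.54–34.9) for AS-like cells, so the NSC-like ratio no longer passed 2-fold. From 12w to 24w the interval included 1 in both classes, with ratios of 0.884 (0.455–1.60) and 0.573 (0.173–1.5). In NPC-like cells the 12w ratio was 1.32 (0.616–2.57).

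Among the genes with enough UMIs, the others had ratios nearer to 1 in NSC-like cells at 12w. Ptch1 had ratios to P5 of 0.953 (0.751–1.2) at 12w and 1.37 (0.943–1.92) at 24w there, and of 1.25 (0.987–1.55) and 1.71 (1.18–2.39) in AS-like cells. Smo was lower, with 0.679 (0.486–0.930) and 0.486 (0.220–0.936) in NSC-like cells and 0.501 (0.340–0.716) and 0.402 (0.130–0.946) in NPC-like cells. In NPC-like cells Gli3 had ratios of 0.391 (0.204–0.685) and 0.318 (0.0383–1.17), while in NSC-like cells it had 0.913 and 1.30. Sufu in AS-like cells had 0.461 (0.197–0.921) at 12w. The Hhip ratio in AS-like cells at 12w, 0.422 (0.0104–2.50), rests on 1 UMI against 37.

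Counted by a rule of a ratio of at least 2 or at most 0.5 with 20 UMIs in the higher pool, Gli1 passed as higher and none of the 9 as lower in NSC-like cells at 12w, among 6 with enough UMIs. Of all genes with enough UMIs 19.5% passed the rule there, 8.36% higher and 11.1% lower. At 24w Smo passed as lower, 1 of 5, against 28.7% of all genes, 7.10% higher and 21.6% lower. In AS-like cells at 12w Gli1 passed as higher and Hhip and Sufu as lower, 3 of 8, against 28.3% (10.2% higher, 18.1% lower). At 24w 0 of 4 passed, against 39.9% (7.60% higher, 32.3% lower). Among the 5 classes of this count, the AS-like class had the highest share of all genes past the rule at both ages. In NPC-like cells Boc and Gli3 passed as lower at 12w, 2 of 6, against 17.2% (6.59% higher, 10.7% lower), and Smo, Gli2 and Gli3 at 24w, 3 of 5, against 29.1% (4.00% higher, 25.1% lower). In IMN1-like cells 0 of 3 passed at 12w, against 12.4% (6.97% higher, 5.40% lower), and Ptch1, 1 of 2, passed as lower at 24w with 0 UMIs (ratio interval 0–1.34), against 24.5% (3.86% higher, 20.7% lower). In IMN2-like cells 0 of 3 passed at 12w, against 15.3% (10.7% higher, 4.62% lower), and Ptch1, the 1 gene with enough UMIs, passed as lower at 24w from 1 UMI, with 0.365 (0.00892–2.21), against 21.4% (5.43% higher, 15.9% lower). The intervals of 6 of these 12 ratios include 1. They are Hhip in AS-like cells, Boc at 12w and Gli2 and Gli3 at 24w in NPC-like cells, and Ptch1 in both classes of immature neurons, each from 2 UMIs or fewer at the adult age. The Boc ratio was 0.273 (0.0321–1.05) and that of Gli2 0.320 (0.00802–1.83). Against P5 cells of like sex, 6 of the 12 no longer passed. Gli1 in NSC-like cells and Sufu in AS-like cells, at 0.52 (0.212–1.11), came within 2-fold, and Hhip in AS-like, Boc in NPC-like and Ptch1 in IMN1-like and IMN2-like cells had too few UMIs. Smo in NSC-like cells at 24w came within 2-fold with free RNA subtracted from the adult pool only, at 0.501 (0.216–1.01). Smo in NPC-like cells at 24w did so with a clustering resolution of 0.4, at 0.558 (0.223–1.16). Since the adult pools hold fewer UMIs than those of P5, a gene reaches the minimum more easily by being lower. The median ratio over all genes lay between 1.09 and 1.17 in the NSC-like, AS-like and NPC-like classes.

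**Figure D2:**
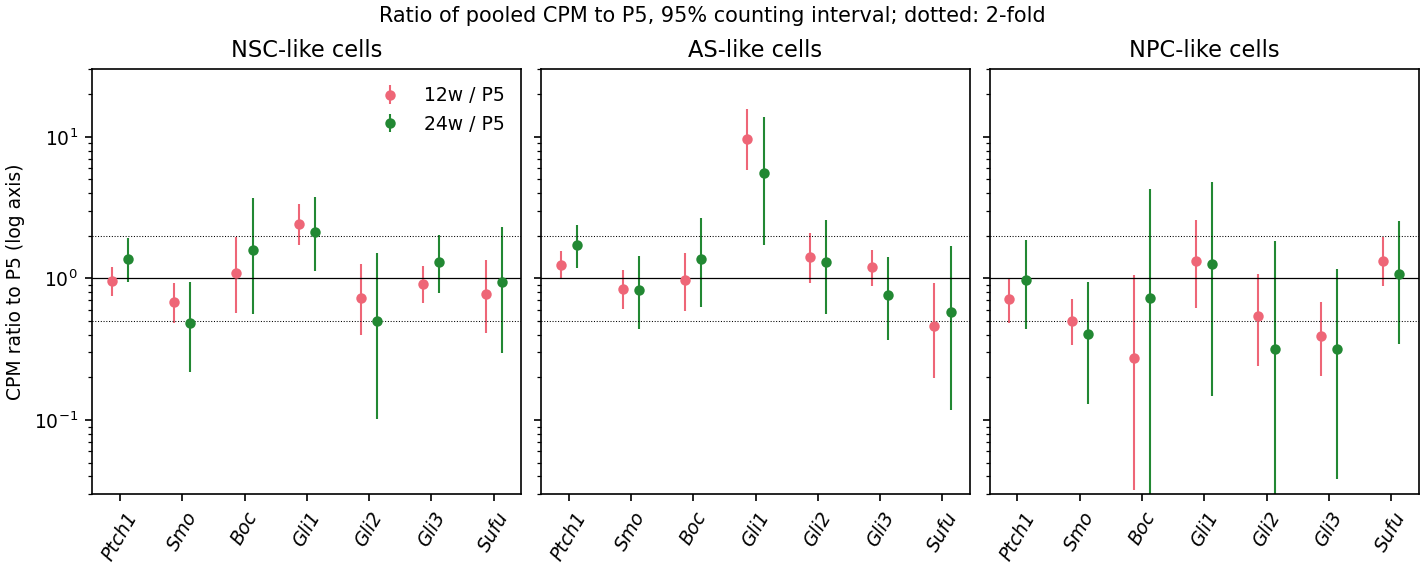
Ratio of the level at 12w and at 24w to that at P5 (y axis, log scale) for 7 of the genes (x axis) in NSC-like, AS-like and NPC-like cells; points are ratios of pooled CPM and bars exact 95% conditional binomial intervals, some of which run past the axis. Gli1 lies above 1 at 12w in NSC-like cells (2.41) and AS-like cells (9.63), and Smo below 1 in NPC-like cells (0.501).

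The scATAC-seq libraries gave accessibility at the same loci in nuclei whose classes were transferred from the RNA data, with 409, 492 and 151 NSC-like nuclei for the 3 ages. Ratios have exact intervals on pairs of counts. For Gli1 (chr10:127329882-127341974, minus strand, overlapping Arhgap9), the peak over the start had 98.4, 94.5 and 113 CPM in NSC-like nuclei. In AS-like nuclei it had 50, 82.7 and 88.1 CPM, with ratios to P5 of 1.65 (1.46–1.87) and 1.76 (1.45–2.13). The corresponding ratios in NSC-like nuclei were 0.961 (0.861–1.07) and 1.15 (1.01–1.30). In AS-like nuclei the accessibility of the Gli1 start at 12w was thus above that of P5, as the RNA was. In NSC-like nuclei it was not. Other starts also differed from P5 in AS-like nuclei at 12w, with ratios of 1.33 (1.21–1.45) for Gli2 and 0.546 (0.421–0.698) for Hhip. At 24w these were 1.68 and 0.523, and Boc had 1.58 (1.26–1.96). In NSC-like nuclei the Gli2 start had a 12w ratio of 1.26 (1.15–1.38), whereas that of its RNA was 0.732 (0.401–1.26). The Gli1 start peak was also open where Gli1 RNA was low, with 89.5, 72.6 and 78.6 CPM in PC-like nuclei.

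**Figure D3:**
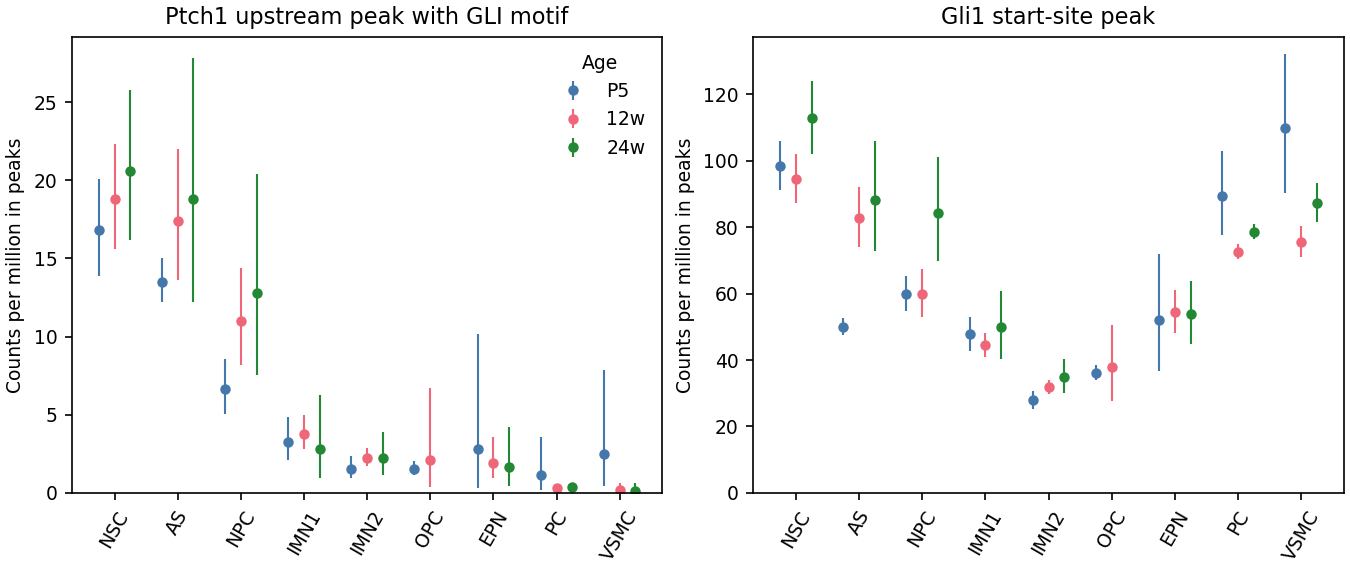
Accessibility in CPM (y axis) of the Ptch1 upstream peak that holds site 4 and of the Gli1 start peak, by class (x axis, X-like) and age; points are pooled counts of 1 library and bars exact 95% intervals on pairs of counts. The Ptch1 upstream peak stands at 18.8 in NSC-like and 0.339 in PC-like nuclei at 12w, whereas the Gli1 start peak stands at 94.5 and 72.6.

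Ptch1 (chr13:63508328-63573598, minus strand) had a start peak, which also holds site 3, of 32.1, 36.6 and 41.7 CPM in NSC-like nuclei and 27.2, 9.23 and 10.1 in PC-like nuclei. The NSC-like values were 1.18, 3.97 and 4.11 times those of PC-like nuclei. The upstream peak with site 4 set the classes further apart than the start peak. It had 16.8 (13.9–20.1), 18.8 and 20.6 CPM in NSC-like nuclei, 13.5, 17.4 and 18.8 in AS-like nuclei and 6.64, 11.0 and 12.8 in NPC-like nuclei. In IMN2-like nuclei it had 1.56, 2.24 and 2.22, and in PC-like nuclei 1.12, 0.339 and 0.370. The ratio of NSC-like to IMN2-like was 10.7 (6.83–18.3), 8.37 (6.14–11.6) and 9.28 (5.08–20.1), and that of NSC-like to PC-like was 14.9 (5.03–155), 55.3 (34.2–93.2) and 55.6 (34.2–98.0). OPC-like nuclei, which had Ptch1 RNA at P5, had 1.55 CPM in this peak, and the ratio of NSC-like to OPC-like was 10.8 (7.61–15.5). Neither the motif nor its absence marked this pattern. The large intronic peak with sites 1 and 2 had 176 CPM in NSC-like, 156 in NPC-like and 121 in PC-like nuclei at 12w. A peak without the motif, centred 58491 bases downstream of the start at 12w, had 9.27 CPM in NSC-like, 13.7 in AS-like, 0.50 in IMN2-like and 0.153 in PC-like nuclei at that age.

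**Figure D4:**
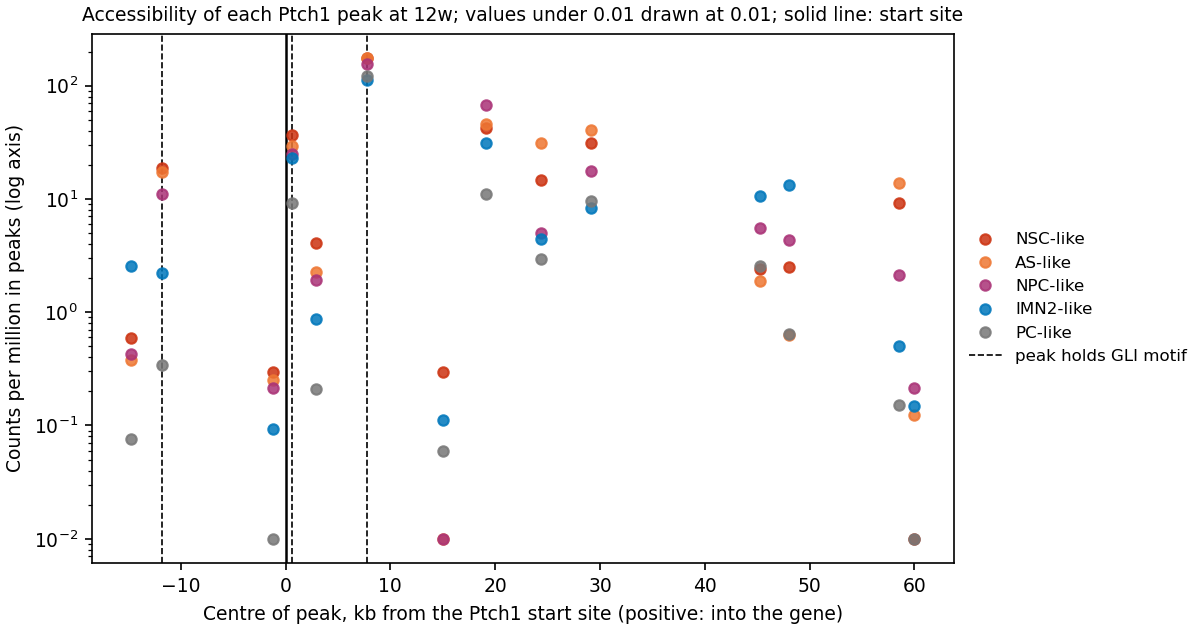
Accessibility at 12w in CPM (y axis, log scale, values below 0.01 drawn at 0.01) of the 14 Ptch1 peaks by distance from the Ptch1 start in kb (x axis) in 5 classes; points are pooled counts of 1 library and dashed lines mark peaks with the GLI motif. At the upstream peak with the motif PC-like nuclei (0.339) lie far below NSC-like nuclei (18.8), and at the large intronic peak with the motif they lie close (121 and 176).

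At the other receptor loci the upstream and intronic peaks with a match were also more open in NSC-like than in PC-like nuclei. The start peaks of Smo and Boc, which held no match, also had higher values in NSC-like nuclei, by smaller ratios. Smo (chr6:29735503-29761365, plus strand) had a start peak of 61.7, 45.9 and 44.5 CPM in NSC-like and 51.7, 34.4 and 32.5 in PC-like nuclei. Its upstream peak with a match, 16430 bases before the start, had 40.1, 40.2 and 39.4 in NSC-like and 10.8, 4.82 and 4.40 in PC-like nuclei. The NSC-like values of this upstream peak were 1.46, 0.943 and 0.918 times those of AS-like nuclei and 1.94, 1.48 and 1.32 times those of IMN2-like nuclei. The Boc gene (chr16:44485049-44558897, minus strand) had a start peak of 48.6, 50.9 and 53.6 CPM in NSC-like nuclei. In PC-like nuclei the Boc start had 45.6, 30.0 and 30.0, and in IMN2-like nuclei 20.2, 24.1 and 27.5. Its intronic peak with a match had 13.8, 12.1 and 9.95 in NSC-like and 4.05, 0.924 and 0.533 in PC-like nuclei. Hhip (chr8:79965851-80058006, minus strand) had 39.6, 31.8 and 30.5 CPM over its start in NSC-like and 7.42, 2.54 and 2.34 in PC-like nuclei. PC-like cells had no Hhip UMI, and the lower limit of the NSC-like to PC-like RNA ratio was 3.64 at 12w and 6.11 at 24w. At P5 that limit was 0.185, so no order of the RNA is shown there. The Hhip start was also open in IMN2-like nuclei, at 17.3, 20.4 and 29.3 CPM, although IMN2-like cells had no Hhip UMI.

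Of the loci of Gli2, Gli3 and Sufu, those of Gli2 and Gli3 differed between classes and that of Sufu differed less. Gli2 (chr1:118834132-119053619, minus strand) had 114, 143 and 165 CPM over its start in NSC-like and 41.4, 17.9 and 19.1 in PC-like nuclei. Gli3 (chr13:15463235-15730026, plus strand, overlapping Gm26645) had 74.9, 77 and 75.3 in NSC-like nuclei and 80.0, 37.6 and 38.0 in PC-like nuclei. In OPC-like nuclei it had 13.1 and 6.73 at P5 and 12w. Sufu (chr19:46396896-46488804, plus strand) had between 74.2 and 127 CPM over its start in every class, and its RNA was also spread over the classes.

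The question of the bulk comparison is what changes in cultured NSCs when Setd8 is reduced. Of the 6 libraries, 4 held expression values, as TPM. The files labelled Ctrl_1 and Ctrl_2 held gene symbols and transcript lengths. The TPM of the libraries labelled Ctrl_3, Setd8KD_1 and Setd8KD_2 match the control columns of the authors' own table of these experiments, and those of the library labelled Setd8KD_3 match a knockdown column, for 169 of 169 genes each within 0.001% of the value. The libraries are therefore compared as 3 controls against 1 knockdown library, and every direction below depends on that grouping. Setd8, the targeted gene, stood at 154, 143 and 143 TPM in the first 3 and at 36.4 TPM in the library labelled Setd8KD_3, a ratio of 0.248, so it went against the labels of Setd8KD_1 and Setd8KD_2. The libraries held between 20040076 and 21493347 reads. The cells carried Sox2 at 226 to 251 TPM. Fabp7 stood at 6010, 5960 and 5860 TPM in the controls against 4870 in the knockdown library, and Vim at 5380, 5560 and 5650 against 5020. Olig2 stood at 1340, 1260 and 1270 TPM against 1110, and Gfap at 3.53, 3.3 and 3.38 against 2.84. Of the other oligodendrocyte lineage markers Pdgfra stood at 3.16 to 4.31 TPM, and Sox10 and Mbp at 0.135 TPM or less. Of the other astrocyte markers S100b stood at 14.7, 16 and 13.2 TPM against 12.4 and Aldh1l1 at 8.34, 9.53 and 8.67 against 10.9. Aqp4 stood at 0.713, 0.52 and 0.644 TPM in the controls against 0.0894 in the knockdown library. Of 4 neuronal markers Dcx and Stmn2 had no read, while Tubb3 stood at 0.987, 1.28 and 1.49 TPM in the controls against 4.34 in the knockdown library, and Rbfox3 at 0.507, 0.537 and 0.404 against 1.11. Of the stem cell markers Nes stood at 191, 223 and 236 TPM against 150 and Pax6 at 24, 24.4 and 22.4 against 14.4, while Sox1 stood at 35.3, 31.9 and 33.5 against 47.6 and Msi1 at 26.9, 25.5 and 25.3 against 40.1. Several of these markers thus moved in the same library as Shh and Ptch1, and their part in the values below was not tested. Nothing says that the libraries came from separate cultures, and in bulk RNA more cells with a gene and more RNA per cell cannot be told apart.

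The ligand differed most. Shh stood at 1.32 TPM in the library labelled Ctrl_3, 1.49 in Setd8KD_1 and 1.62 in Setd8KD_2, the controls, and at 22.5 TPM in the library labelled Setd8KD_3. These values rest on 31, 36 and 37 reads against 529. The 3 controls lay close together, with a mean of 1.47 TPM ± 0.152 (SD, n = 3), and the knockdown library lay far outside them. On the scale of log2(TPM + 1) the difference was 3.25 (SE 0.095), and the ratio of TPM was 15.2. This was rank 2 from the highest log2 increase among the 12703 genes with a mean of at least 1 TPM. The SE, here and for Ptch1 below, takes its spread from the controls and measures none of the 1 knockdown library.

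Ptch1 and Gli1, the targets used as a readout of the pathway, were also higher in the knockdown library. Ptch1 stood at 27.7, 32.1 and 30.0 TPM in the controls and at 51.4 TPM in the knockdown library, a ratio of 1.72 and a log2 difference of 0.77 (SE 0.103). Gli1 stood at 0.248, 0.331 and 0.192 TPM against 0.991 TPM, from 8, 11 and 6 reads against 32, a ratio of 3.86. The knockdown value lay above the controls for both genes, as for 41.3% of the genes with a mean of at least 1 TPM (below them for 40.8%), but Gli1 is below a mean of 1 TPM and was left out of the limma fit. Hhip, the other target among the 9, stood just below the controls, at 0.212, 0.218 and 0.245 TPM against 0.200 TPM (17, 18 and 19 reads against 16).

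The remaining genes differed little. Smo stood at 71.5, 72.4 and 77.4 TPM against 73.6 TPM, within the controls. Boc stood at 4.07, 4.60 and 4.62 TPM against 5.27 TPM, and Gli2 at 5.12, 6.38 and 5.76 TPM against 6.62 TPM, both just above the highest control. Gli3, at 1.47, 1.53 and 1.75 TPM against 1.56 TPM, lay within the controls, and Sufu, at 33.9, 33.6 and 34.2 TPM against 31.4 TPM, below them. In the limma fit over all genes, 35.6% of 12703 genes passed the call rule, 17.4% higher and 18.3% lower, and of the 7 genes in it Shh and Ptch1 were past it as higher and 0 as lower. Ptch1 was not past it when genes of low values were kept in the fit. These counts are a description, since the 9 genes were chosen with this contrast in view, and nothing is read from them.

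A list of 37 other genes of the pathway, in 4 roles, gives the surroundings. In the bulk comparison 26 were tested and 3 were called higher and 3 lower by limma, against 17.4% higher and 18.3% lower over all genes, with a median log2 difference of -0.04 against 0 over all genes. These calls rest on 1 knockdown library, whose spread is taken from the 3 controls. The list was also chosen with earlier results of these data known, so the calls are a description. Of the other ligands and the genes for their release 1 was tested and not called, and of the receptors and coreceptors 2. The transducers called higher, among 19, were Tulp3, which guides proteins into cilia, with a log2 difference of 0.29, and 2 that act on Gli proteins. These were Btrc, a subunit of a ubiquitin ligase (0.48), and Ulk3, a kinase (0.79). Spop, an adaptor that sends Gli proteins to degradation, was called lower, at -0.65, and Prkaca, the catalytic subunit of protein kinase A, at -0.31. Of the 4 other target genes tested Bcl2, a survival factor, was called lower, at -0.38, and Ccnd1 had -0.10. Gas1, a coreceptor, had -0.31 and was not called.

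Among the same 37 genes in NSC-like cells at 12w, 23 had enough UMIs, and 2 were past 2-fold higher and 3 lower than at P5, against 19.5% of all genes in either direction. In AS-like cells 3 of 23 were higher and 4 lower, against 28.3%, and in NPC-like cells 3 of 21 were higher and 4 lower, against 17.2%. At 24w the counts were 1 higher and 4 lower of 16 in NSC-like cells (28.7% of all genes), 0 and 4 of 14 in AS-like cells (39.9%) and 2 and 6 of 18 in NPC-like cells (29.1%). In IMN1-like cells 2 were higher and 3 lower of 17 at 12w (12.4% of all genes), and 1 and 4 of 10 at 24w (24.5%). In IMN2-like cells the counts were 4 and 2 of 18 at 12w (15.3%), and 1 and 3 of 13 at 24w (21.4%). Prkacb, a listed transducer, was past 2-fold higher in both classes of immature neurons at both adult ages. Gas1 in AS-like cells at 12w had a ratio of 2.07 (1.82–2.34). In NSC-like cells its level was 509, 452 and 293 CPM at P5, 12w and 24w. Ulk3 had 12w ratios of 2.35 (NSC-like) and 3.29 (AS-like). Foxs1, a transcription factor gene of pericytes, is listed among the Gli targets. Its 12w ratios were 15.1 (NSC-like), 2.73 (AS-like) and 7.08 (NPC-like), and the part of free RNA in these was not tested. Nkx2-2, a transcription factor of ventral progenitors and the oligodendrocyte lineage, had 0.0926 (NSC-like) and 0.156 (AS-like). Mycn, a target that drives proliferation, had a 12w ratio of 2.13 (1.89–2.39) in NPC-like cells, in which the targets Bcl2 and Nkx2-2 were past 2-fold lower. In the same cells Gas1 had 0.384 (0.312–0.468) and Cdon, a coreceptor, 0.241 (0.0769–0.579). Ccnd1, the cyclin D1 gene and a target in dividing precursors, had 12w ratios of 0.315 (NSC-like) and 0.142 (AS-like), below 1 where Gli1 was above it. The listed Gli targets did not all go this way. Of the 6 with enough UMIs in NSC-like cells at 12w, Foxs1 was past 2-fold higher and Ccnd1 and Nkx2-2 lower. Of the 6 in AS-like cells, Foxs1 was higher and Ccnd1, Ccnd2 and Nkx2-2 lower.

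The genes whose levels followed those of the 9 most closely were found by Pearson's r of log2(CPM + 10) over 35 pools of class and age, among 12514 genes. The pools share 3 libraries and their depths, so r is a description. Gli1 was nearest to Frzb (r = 0.882), which was also used to name the NSC-like class, and then to Hopxos (0.869) and Thbs4 (0.850). Ptch1 was nearest to Epdr1 (0.862), Adhfe1 (0.848) and Fam69c (0.844). Gli3 was nearest to Prdx6 (0.917), Tmem47 (0.909) and Ntrk2 (0.909). Gli2 was nearest to Slc7a11 (0.847), Gm13111 (0.832) and Slc1a2 (0.832), a glial glutamate transporter. Boc was nearest to Pld2 (0.916), Mgst1 (0.903) and Gja1 (0.899), a gap junction gene of astrocytes. For Smo and Sufu the nearest genes were further away, Cfap20 (0.750), a gene of the cilium, and Hspb6 (0.707) for Smo, and Cdkn2c (0.711), Blmh (0.686) and Psmd1 (0.685) for Sufu.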

How the data were processed

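The 9 genes and the list of 37 other pathway genes were chosen with earlier results of these data known. The authors counted the deposited scRNA-seq UMIs with Cell Ranger 2.2.0 on mm10 and deposited them as raw counts. The scATAC-seq values are also deposited as raw counts, from Cell Ranger ATAC (mm10) and peaks called at each age, with 256859756, 315005811 and 201338852 in total at the 3 ages. The bulk values were deposited as TPM, which the authors made after Trimmomatic and STAR alignment to mm10 and which come beside deposited transcript lengths. The ChIP-seq and ATAC-seq samples of cultured NSCs were not analysed here.

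A cell was a barcode of 1000 UMIs and 500 genes or more with no more than 10% mitochondrial UMIs (13684, 5351 and 2797), and 932, 80 and 3 doublets were removed with scrublet in scanpy 1.11.5. The P5 library lists no barcode under 1495 UMIs, so it had been filtered before deposit. Cells were clustered with Seurat 5.3.0 (2000 variable genes, 30 dimensions, resolution 0.8) without the 9 genes and the list. A cluster took the class with the highest marker score of at least 0.5 and at least 3 raised markers, if these outnumbered those of other classes among its 10 leading genes. ATAC labels were transferred at a score of at least 0.5 in nuclei with 3000 to 100000 counts. Of the ATAC entries, 89.2%, 91.8% and 91.1% are even, so intervals were taken on pairs of counts. Libraries hold 67543410, 21972852 and 11353643 UMIs over all barcodes, of which 98.2%, 70.6% and 63.0% lie in the barcodes that passed. Intervals are exact at 95% and cover counting error only.

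Reads recovered from TPM and lengths were whole for 97.8% to 99.2% of values, within 0.02 reads or 0.001% of the reads, whichever was larger. limma 3.58.1 was fitted to log2(TPM + 1) of genes with a mean of at least 1 TPM, with Benjamini-Hochberg adjustment at 0.05; with 1 knockdown library, this library is assumed to vary like the controls. edgeR 4.0.16 and DESeq2 1.42.0 on recovered reads were alternatives. Genes named are the 9, the listed pathway genes that passed a threshold and the nearest genes by r, with Gas1 and Ccnd1 added after their values were seen, and some genes are not reported here. Scripts were tested on simulated data.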

Additional observations from a re-analysis of the deposited data

How the results depend on the processing

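The bulk comparison called 4526 genes by limma. With the grouping of the GEO labels, 1 control against 3 libraries labelled Setd8KD, it called 0 genes (122 at an unadjusted p under 0.05, no other tool run), and the log2 difference was 1.21 for Shh and 0.40 for Ptch1, neither past the call rule. Without a filter on low values it called 1935 genes, and Ptch1, at 0.77, was not past the call rule. Leaving out 1 control at a time gave 2639 to 3980 genes, the lowest without the library labelled Setd8KD_1. The knockdown library cannot be left out. The other settings gave 4067 (pseudocount 0.1), 5207 (pseudocount 5), 4756 (mean of at least 5 TPM), 6089 (edgeR), 4399 (DESeq2) and 5859 genes (edgeR without a filter, chosen after seeing the data). The log2 difference of Gli1 was 1.92 in edgeR, 1.94 in DESeq2 and 0.67 in limma without a filter. No paired analysis was possible because the libraries with values share fewer than 2 replicate numbers across the groups.

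Of 74 age ratios of the 9 genes in NSC-like, AS-like, NPC-like, IMN1-like and IMN2-like cells, 12 passed 2-fold. The other classes were left out of this count. With P5 cells of like sex 7 of 70 did, 6 of them shared (Gli1 in AS-like cells at 12w, Gli3 in NPC-like cells at both ages, Smo in NSC-like and in NPC-like cells at 24w and Gli2 in NPC-like cells at 24w), and with scaling by the median ratio 16 did, including these 12. With free RNA subtracted 11 of the 12 were shared, without Smo in NSC-like cells at 24w. That subtraction changed the 12w and 24w pools only, since the P5 library was filtered before deposit and lists no barcodes of free RNA. At a resolution of 0.4, where 62 ratios could be compared, 10 of 11 were shared, without Smo in NPC-like cells at 24w. All 12 passed in cells of at least 2000 UMIs. For Gli1 at 12w the settings gave 1.77 to 2.64 in NSC-like and 8.26 to 12.9 in AS-like cells. Levels of at least 10 CPM numbered 78 of 180, and 71 of 153 at a resolution of 0.4. With free RNA subtracted they numbered 45 of 108, against 47 before it. One cluster of a class at a time was also tried, after seeing the data. At a transfer score of 0.7, 101 of 207 accessibility values reached 100 CPM against 100 at 0.5, but 38 of the 207 lay outside their interval, with ratios to the values at 0.5 from 0.359 to 2.13. A second round of clustering was tried and not used, since in it the largest cluster with NSC markers had more AS than NSC markers among its leading genes. Depth limits the adult pools most, where 3 UMIs in NSC-like cells at 24w equal 8.61 CPM.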

Other observations

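Clusters that took no class held Hedgehog RNA as well. A cluster of 1025 cells led by haemoglobin genes, with astrocyte genes beside them, had Ptch1 at 68.9 CPM (58.3–81.0) at P5 and 95.8 CPM (55.8–153) at 12w. In the same cluster Gli1 stood at 4.69 CPM (2.25–8.63) at P5 and 45.1 CPM (19.5–88.9) at 12w, from 10 and 8 UMIs. A cluster with Olig1, Olig2 and Egfr among its leading genes had Ptch1 at 38.7 CPM (32.1–46.1) and Gli1 at 3.14 CPM (1.51–5.78) in 523 cells at P5. A cycling cluster with genes of oligodendrocyte precursors, 449 cells at P5, had Ptch1 at 31.8 CPM (24.2–40.9) and 1 UMI of Gli1. No UMI of Shh was found in these 3 clusters.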
